A study of Mus musculus with 18 samples.

Results

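Mouse bone marrow derived macrophages that had spent 2 h in dexamethasone were compared with the same kind of culture at baseline. The comparison used 6 of the 18 expression arrays of a time series. Of these, 3 carried baseline in their titles and 3 carried 2 h of dexamethasone at 100 nM. All cultures came from marrow of male C57BL/6 mice 10 weeks of age. The protocol names 3 mice for the marrow and does not say whether each replicate came from 1 mouse or from a pool. The marrow cells had grown for 1 week in 10% fetal calf serum with recombinant human CSF1 at 10000 U/ml, and were then replated in both for the experiment. CSF1 is the growth factor that drives marrow progenitors to become macrophages, so baseline and treated cells alike were CSF1-fed macrophages. The labels name no vehicle and no time for the baseline cultures, and the series holds no untreated culture at 2 h. Effects of dexamethasone therefore cannot be told apart from those of time or handling after baseline. The series design text calls the replicates biological. The p-values of gene changes here rest on the spread between replicate arrays within the groups of all 18 arrays.

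Dexamethasone is a synthetic glucocorticoid that enters cells and binds the glucocorticoid receptor, which waits in the cytosol with heat shock protein chaperones. The bound receptor moves to the nucleus, binds DNA at glucocorticoid response elements and raises transcription of nearby genes, and it also lowers the output of genes driven by AP-1 and NF-kappaB. In macrophages glucocorticoids are known for lowering inflammatory cytokines and chemokines and for promoting the uptake of dying cells.

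Between 72.9% and 74.7% of the 13190 genes tested lay above background on each of the 6 arrays. Background here means 3.86 log2 units of intensity, taken from the control probe sets of the array. All 9 macrophage markers on the array, such as Csf1r, Adgre1 and Cd68, were above background in both groups, and their summed level spanned 14.92 to 14.96 log2 at baseline and 14.93 to 14.96 at 2 h. All markers on the array of NK cells, dendritic cells, mast cells and basophils, eosinophils and stroma lay below background. Of the other types, 2 of 6 T cell, 1 of 6 B cell, 7 of 9 neutrophil, 2 of 4 erythroid, 2 of 5 megakaryocyte, 1 of 5 endothelial and 2 of 4 osteoclast markers were above it. The neutrophil sum spanned 9.75 to 10.42 at baseline and 10.08 to 10.20 at 2 h, and the T cell sum 9.94 to 10.28 and 9.79 to 9.96. Nearly all of the T cell sum was Cd28, with means of 10.00 at baseline and 9.79 at 2 h. Cd3e stood at 4.78 and 4.40, and Cd3d, Cd3g, Cd2 and Cd8a lay below background. The endothelial sum spanned 6.12 to 6.28 at baseline and 5.91 to 6.03 at 2 h, so those groups did not overlap. Of all genes tested, 4.86% had treated arrays wholly below baseline. Kdr was the only endothelial marker above background, with means of 5.23 and 4.74, while Cdh5, Pecam1, Tek and Emcn were below it. No marker that entered the fit changed at 2 h. Many markers were too dim to be tested, such as Prg2, Epx and Siglecf of eosinophils. The part of these cell types in the results was not tested. In bulk RNA, fewer cells of a type and less RNA per cell cannot be told apart. RNA quality was read from Gapdh and Actb controls as the log2 excess of the 3' over the 5' probe set. For Gapdh it was 0.06 ± 0.03 (SD, n = 3) in baseline and 0.15 ± 0.08 in treated arrays (two-sided exact permutation test, p = 0.3). For Actb it was 0.38 ± 0.02 and 0.43 ± 0.02 (exact permutation p = 0.1, adjusted over both controls 0.2), and no lower p than 0.1 is possible with so few arrays.

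After 2 h, 283 genes had changed, which is 2.15% of the genes tested. A gene counts as changed where limma's adjusted p was under 0.05. Of these, 207 genes rose (1.57% of those tested) and 76 fell (0.576%). Among the genes that rose, 42 did so by at least 1 log2 unit, which is a doubling of intensity, against 6 of those that fell. The median change was 0.62 log2 among the genes that rose and -0.49 among those that fell, beside a median of 0.01 over all genes tested. The 3 treated arrays lay wholly on 1 side of the 3 baseline arrays for 282 of the 283 genes. These genes were chosen by a test that used the same arrays, so this separation was largely built in and nothing is read from it. The largest changes named below were also required to have groups that did not overlap, so gaps between their arrays are description only. Without any test, 8.26% of all genes tested had wholly higher and 4.86% wholly lower treated arrays. The changed gene whose groups overlapped was Ms4a6d, a membrane protein of the MS4A family, named here after its values were seen. Its change of 0.24 ± 0.06 log2 had an adjusted p of 0.0398. Closest to the threshold on its inner side were Lonrf3, Rad9b and Socs2 with adjusted p of 0.0456, 0.046 and 0.0462, and on its outer side Man2a1, Sash1 and Acod1 with 0.0502, 0.0504 and 0.051.

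**Figure D1:**
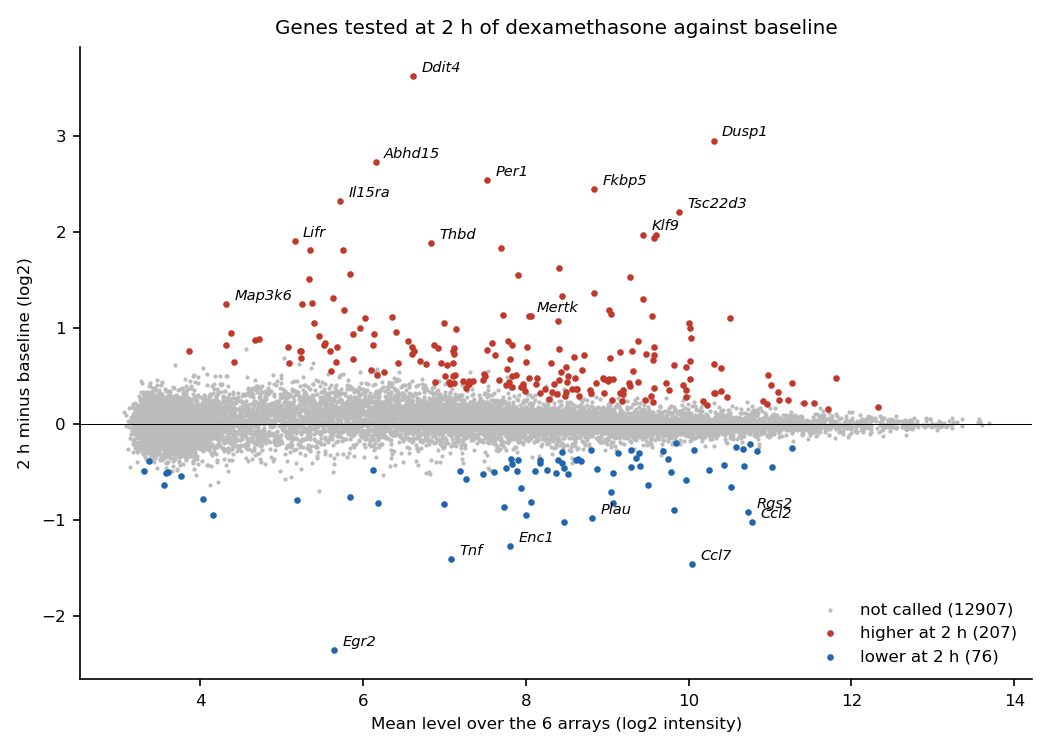
Each point is 1 of the 13190 genes tested, with its mean log2 intensity over the 6 arrays on the horizontal axis and its log2 difference, 2 h minus baseline, on the vertical axis; red points rose, blue points fell and grey points did not pass the test. The 207 red points reach 3.62 (Ddit4) and the 76 blue points reach -2.36 (Egr2).

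The receptor itself was measured first. Nr3c1, the glucocorticoid receptor gene, read 8.49, 8.54 and 8.37 at baseline and 8.29, 8.34 and 8.27 at 2 h, in log2 intensity. All treated arrays lay below all baseline arrays, but the difference of -0.17 ± 0.08 log2 did not pass the test (adjusted p = 0.543). Here and below, the error of a difference is limma's standard error with n = 3 arrays against 3. Counts of list members here and below are to be set beside the 1.57% of all genes tested that rose and the 0.576% that fell. The lists were chosen with earlier results of these data known, so nothing is read from a count alone. Of 14 genes for the receptor and its chaperones, 1 rose and 0 fell, with a median change of 0.02 log2. That gene was Fkbp5, which encodes a co-chaperone that lowers the receptor's affinity for hormone. Fkbp5 read 7.61, 7.70 and 7.54 at baseline and 10.11, 9.99 and 10.08 at 2 h, a 5.43-fold difference with groups far apart (adjusted p = 5.34e-18). None of the 11 receptor coactivators and corepressors tested passed limma's threshold, 1 had an unadjusted p under 0.05 (beside 9.29% of all genes tested), and the brightest, Trim28, differed by 0.02 ± 0.08 log2. A list of 28 genes widely known as direct targets of the receptor held 13 that rose and 3 that fell, with a median change of 0.39 log2 beside 0.01 for all genes. Those that fell were Rgs2, Gadd45a and Bcl6, described with their families below. Among the 12 that did not pass were Zbtb16 (0.78 log2, adjusted p = 0.182), Cd163 (0.18), Anxa1 (-0.01) and Mt1 (0.08).

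Genes that restrain growth factor and stress signalling held the 2 largest rises, Ddit4 and Dusp1. Ddit4 encodes an inhibitor of the mTORC1 kinase complex, and read 5.32, 4.28 and 4.81 at baseline and 8.42, 8.34 and 8.52 at 2 h. The 3 baseline arrays were spread over 1 log2 unit, yet all treated arrays lay more than 3 units above the highest of them, and the difference was 3.62 ± 0.19 log2, or 12.3-fold (adjusted p = 6.14e-13). Tsc22d3 encodes GILZ, a leucine zipper protein that binds AP-1 and NF-kappaB subunits, and read 8.79, 8.85 and 8.70 at baseline and 11.01, 11.03 and 10.90 at 2 h. Its arrays scattered little in either group, and the difference was 2.20 ± 0.06 log2 (adjusted p = 2.25e-18). These were the only 2 of 16 genes in the list of TSC22 proteins and mTOR brakes to pass the test. The sestrins did not, with Sesn3 at 0.23, Sesn1 at -0.03 and Sesn2 at -0.08 log2, nor did Tsc22d1 at 0.13.

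Dusp1 encodes the phosphatase MKP-1, which switches off the kinases p38 and JNK. It read 8.73, 8.74 and 9.03 at baseline and 11.84, 11.72 and 11.79 at 2 h, so the groups lay more than 2 log2 units apart, with a difference of 2.95 ± 0.09 (adjusted p = 3.4e-17). The rest of the family did not follow it. Of 22 genes for MAP kinase phosphatases and related regulators, 1 rose and 2 fell, with a median of 0.08. Dusp4, another nuclear phosphatase, read 8.56, 8.39 and 8.47 at baseline and 7.47, 7.80 and 7.72 at 2 h and fell by 0.81 on the log2 scale (SE 0.10, adjusted p = 7.53e-06). Dusp7, which acts on ERK in the cytosol, changed by -0.40 ± 0.08 (adjusted p = 0.00352). Taken as another probe set, the one of largest variance, Dusp7 changed by -0.13 and did not pass (adjusted p = 0.902). A further Dusp7 probe set changed by -0.48 and passed (adjusted p = 0.000542). Map3k6, a stress kinase of the ASK family, was below background on 2 of 3 baseline arrays and near it on the other, with 3.84, 3.87 and 3.37 at baseline and 5.01, 4.85 and 4.97 at 2 h, a difference of 1.25 ± 0.15 (adjusted p = 3.56e-06).

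Among 16 genes of FoxO and insulin signalling, 3 rose and 0 fell (median 0.03). Sgk1 encodes a kinase that, like AKT, phosphorylates FoxO factors, and read 9.46, 9.62 and 9.47 at baseline and 10.50, 10.53 and 10.53 at 2 h. The treated arrays agreed within 0.05 log2 and the difference was 1.00 ± 0.05 (adjusted p = 1.34e-12). Pik3r1, the regulatory p85 subunit of phosphoinositide 3-kinase, read 9.61, 9.71 and 9.76 at baseline and 10.45, 10.28 and 10.32 at 2 h and rose by 0.66 ± 0.05 (adjusted p = 2.08e-09). Insr, the insulin receptor, differed by 0.45 ± 0.11 (adjusted p = 0.0178), but its call was lost without 2 h replicate 1 (0.35, adjusted p 0.166) or baseline replicate 3 (0.35, adjusted p 0.165).

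**Figure D2:**
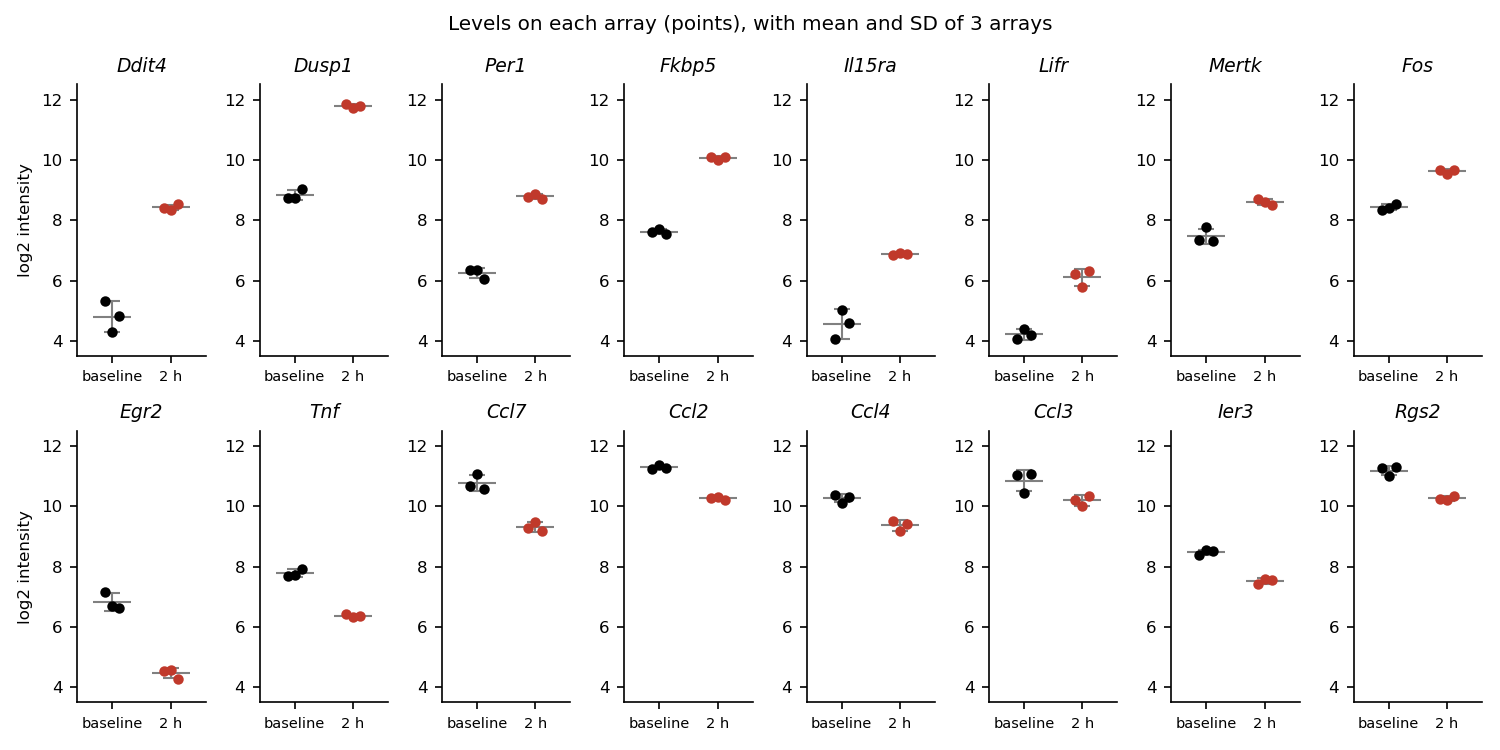
Log2 intensity of 16 genes on each of the 3 baseline arrays (black) and the 3 arrays at 2 h (red), with grey bars for the mean and SD. In every panel the 2 groups are apart, which is description only, since the genes shown passed the test on these arrays. The widest gap is that of Ddit4 (3.62 log2 between means) and the narrowest that of Ccl3 (-0.65).

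Promoters were read for the genes that changed, from 250 bases before to 50 after each RefSeq transcript start. Sequences were on hand for 169 of the genes that rose and 57 of those that fell. The receptor's response element was searched in a short form, GNACANNNTGTNC, and in the full palindrome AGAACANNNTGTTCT, which contains the short form; all motifs were searched on both strands. The short form stood in the promoters of 2 of 169 genes that rose (1.18%) and 0 of 57 that fell, beside 0.435% of the tested genes and 0.537% of all genes with a promoter sequence. The 2 genes were Sgk1 and Map3k6, and Sgk1 alone held the full palindrome, which stood in 3 of all 27025 genes with one (0.0111%). Both are shown because they carry the receptor's motif next to a gene that rose, in lower case with the short form in capitals, from RefSeq on GRCm38.p6. The Sgk1 window is chr10:21993640-21993939 on the plus strand with the motif at -188 from the start, and that of Map3k6 is chr4:133240568-133240867 on the plus strand with the motif at -181.
Sgk1: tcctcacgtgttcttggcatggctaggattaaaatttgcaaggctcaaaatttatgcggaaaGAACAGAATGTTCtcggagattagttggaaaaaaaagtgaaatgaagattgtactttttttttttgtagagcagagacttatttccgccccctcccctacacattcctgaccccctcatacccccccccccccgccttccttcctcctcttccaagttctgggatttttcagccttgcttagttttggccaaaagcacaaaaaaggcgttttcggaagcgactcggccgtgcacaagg
Map3k6: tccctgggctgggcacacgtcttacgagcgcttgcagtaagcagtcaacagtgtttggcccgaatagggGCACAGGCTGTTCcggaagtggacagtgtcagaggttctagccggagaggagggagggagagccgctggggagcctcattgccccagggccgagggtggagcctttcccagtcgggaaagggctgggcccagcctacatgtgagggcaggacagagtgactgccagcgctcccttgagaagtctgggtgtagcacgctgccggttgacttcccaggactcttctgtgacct

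The cyclic AMP response element TGACGTCA stood in 7 of 169 promoters of genes that rose (4.14%) and 3 of 57 of those that fell (5.26%), beside 3.33% of the tested genes and 2.03% of all genes. Dusp1 was 1 of the 7. The AP-1 motif TGANTCA, whose letters do not occur within the cyclic AMP element, stood in 21 of 169 (12.4%) and 4 of 57 (7.02%), beside 6.81% of the tested genes and 8.97% of all genes. The E-box CACGTG stood in 25 of 169 (14.8%) and 8 of 57, beside 11.2% of the tested genes and 8.09% of all genes. The NF-kappaB motif stood in 11.2% and 10.5%, beside 12.1% and 9.55%. The CArG box, the site of serum response factor, stood in 1 of 57 promoters of genes that fell, that of Egr2, and in 2 of 169 of those that rose (1.18%), beside 1.58% of the tested genes and 1.81% of all genes. A match is a run of letters in this window and says nothing of binding. The Dusp1 window (chr17:26508423-26508722, minus strand) and an Egr2 window (chr10:67537619-67537918, plus strand) are shown as those of a strongly raised gene and of the gene that fell most; the capitals mark the cyclic AMP element in the first and the CArG box in the other.
Dusp1: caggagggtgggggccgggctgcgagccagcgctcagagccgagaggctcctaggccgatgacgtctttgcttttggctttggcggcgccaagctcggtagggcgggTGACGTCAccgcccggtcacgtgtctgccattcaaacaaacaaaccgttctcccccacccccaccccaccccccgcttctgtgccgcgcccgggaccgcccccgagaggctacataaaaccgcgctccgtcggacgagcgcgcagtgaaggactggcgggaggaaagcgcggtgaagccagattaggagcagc
Egr2: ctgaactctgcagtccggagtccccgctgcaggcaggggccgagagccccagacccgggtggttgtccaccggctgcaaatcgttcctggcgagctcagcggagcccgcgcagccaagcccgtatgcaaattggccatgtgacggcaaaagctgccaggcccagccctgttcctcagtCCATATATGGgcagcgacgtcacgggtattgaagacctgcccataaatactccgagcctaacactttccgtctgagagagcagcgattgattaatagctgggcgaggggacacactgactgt

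The clock genes, which keep daily rhythm and are set by glucocorticoids in many tissues, moved in both directions. Per1, a repressor of the circadian clock, read 6.34, 6.36 and 6.05 at baseline and 8.78, 8.88 and 8.72 at 2 h and rose by 2.54 ± 0.10 log2 (adjusted p = 1.13e-15). Nfil3, a repressor that binds the same sites as the clock output factor Dbp, read 5.61, 5.91 and 5.88 at baseline and 7.09, 6.94 and 6.71 at 2 h and rose by 1.12 ± 0.15 (adjusted p = 1.55e-05). Bhlhe40, which represses E-box driven transcription, moved the other way, by -0.47 ± 0.10 (adjusted p = 0.0062), and lost its call without 2 h replicate 3 (-0.39, adjusted p 0.0717). Of 19 clock genes, 2 rose and 1 fell, beside 1.57% and 0.576% of all genes tested, and the median was -0.04.

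Among 17 Kruppel-like and other zinc finger factors, 4 rose and 1 fell (median 0.13). Klf9, a repressor known as a receptor target in many tissues, read 8.31, 8.62 and 8.44 at baseline and 10.48, 10.33 and 10.47 at 2 h, and Klf4, a factor linked to alternative macrophage activation, read 8.38, 8.69 and 8.77 at baseline and 10.45, 10.56 and 10.72 at 2 h. Both rose by 1.97 log2 (SE 0.07 and 0.09; adjusted p = 9.57e-17 and 9.48e-14), and neither gene's groups came within 1.5 units of each other. Klf13 rose by 0.68 ± 0.07 (adjusted p = 2.44e-07). Klf6 rose by 0.25 ± 0.06 (adjusted p = 0.013), a call that was lost without baseline replicate 1 (0.23, adjusted p 0.0815), baseline replicate 2 (0.23, adjusted p 0.0838), 2 h replicate 2 (0.22, adjusted p 0.0956) or 2 h replicate 3 (0.22, adjusted p 0.0886). Bcl6, a repressor that opposes NF-kappaB target genes, read 8.83, 8.57 and 8.70 at baseline and 8.38, 8.18 and 8.17 at 2 h and fell by 0.46 (SE 0.10, adjusted p = 0.00789); the call was lost without baseline replicate 1 (-0.39, adjusted p 0.073) or 2 h replicate 3 (-0.42, adjusted p 0.058). Of 12 C/EBP and Maf factors, 2 rose: Cebpb, a driver of macrophage and acute phase genes, by 0.41 ± 0.05 (adjusted p = 5.25e-06) and Maf, a factor of mature macrophages, by 0.43 ± 0.07 (adjusted p = 0.000284). The list's median was -0.01.

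Egr2, a zinc finger factor that takes part in macrophage differentiation, showed the largest fall of all genes. It read 7.16, 6.69 and 6.64 at baseline and 4.56, 4.59 and 4.27 at 2 h, so the treated arrays lay about 2 units under every baseline array, and the difference was -2.36 ± 0.19 log2, a 5.13-fold lower intensity (adjusted p = 3.92e-09). It belonged to a list of 18 macrophage lineage factors of which 0 rose and 5 fell, with a median of -0.14. The others were Ets2, a target of CSF1 signalling that read 9.51, 9.47 and 9.57 at baseline and 8.96, 9.11 and 9.12 at 2 h (-0.45 ± 0.08, adjusted p = 0.000974), Zeb2, Irf8 and Runx1. Zeb2, a repressor that maintains macrophage identity, read 10.71, 10.59 and 10.65 at baseline and 10.28, 10.23 and 10.16 at 2 h and changed by -0.43 ± 0.05 (adjusted p = 1.88e-06). With the probe set of largest variance in its place Zeb2 stood at -0.04 (adjusted p = 0.985), and with the mean of all its probe sets at -0.19 (adjusted p = 0.716). Its remaining probe sets stood at -0.36 (adjusted p = 0.0221) and 0.06 (adjusted p = 0.98). Irf8, needed for monocyte development, changed by -0.41 ± 0.09 (adjusted p = 0.00739), and the call was lost without baseline replicate 1 (-0.36, adjusted p 0.0579) or 2 h replicate 3 (-0.37, adjusted p 0.0568). Runx1, a factor of blood stem cells and myeloid cells, changed by -0.30 ± 0.08 (adjusted p = 0.0411), and was lost without baseline replicate 1 (-0.30, adjusted p 0.111), 2 h replicate 1 (-0.32, adjusted p 0.0803), baseline replicate 2 (-0.27, adjusted p 0.203), 2 h replicate 2 (-0.32, adjusted p 0.0791) or 2 h replicate 3 (-0.27, adjusted p 0.189).

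The immediate-early genes, which growth factors switch on within minutes, did not move in 1 direction. Of 24 tested, 1 rose and 3 fell, and the median was -0.13. Fos, a subunit of AP-1, read 8.35, 8.41 and 8.55 at baseline and 9.68, 9.52 and 9.65 at 2 h and rose by 1.18 ± 0.10 (adjusted p = 5.53e-09). Beside Egr2, Ier3, a stress-induced survival gene, read 8.37, 8.54 and 8.51 at baseline and 7.41, 7.59 and 7.56 at 2 h and fell by 0.95 (SE 0.10, adjusted p = 8.16e-07). Atf3, a stress-induced repressor, changed by -0.48 ± 0.11 (adjusted p = 0.0113) and lost its call without baseline replicate 1 (-0.46, adjusted p 0.0597), baseline replicate 3 (-0.46, adjusted p 0.0651) or 2 h replicate 3 (-0.48, adjusted p 0.0502). Atf3 also missed the threshold without the intensity trend (adjusted p = 0.107) and with a robust prior (0.12).

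Of 22 chemokines tested, the secreted proteins that draw leukocytes to a site, 4 fell and 0 rose. Over all genes tested 0.576% fell and 1.57% rose. Ccl7 and Ccl2, which recruit monocytes through CCR2, were both bright at baseline. Ccl7 read 10.69, 11.06 and 10.58 at baseline and 9.27, 9.48 and 9.18 at 2 h, and Ccl2 read 11.25, 11.36 and 11.26 at baseline and 10.27, 10.32 and 10.21 at 2 h. The differences were -1.46 ± 0.19 (adjusted p = 1.01e-05) and -1.02 ± 0.10 (adjusted p = 8.57e-08). Ccl4 and Ccl3, chemokines of activated macrophages, moved less. Ccl4 read 10.38, 10.12 and 10.30 at baseline and 9.52, 9.17 and 9.43 at 2 h and changed by -0.89 ± 0.12 (adjusted p = 3.12e-05). Ccl3 read 11.04, 10.46 and 11.06 at baseline and 10.21, 10.02 and 10.36 at 2 h, with the baseline arrays spread over 0.60 log2 and 1 of them within 0.10 of the highest treated array. Its change of -0.65 ± 0.12 passed (adjusted p = 0.00106), but not with a robust prior (0.0528). The median of the 22 chemokines was -0.03, and the 18 that did not pass spanned -0.27 to 0.21. None of 13 chemoattractant receptors passed limma's threshold and 0 had an unadjusted p under 0.05, with the brightest, C3ar1, at -0.06 ± 0.05.

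Of 23 cytokines, 0 rose and 2 fell (median -0.08). Tnf, the inflammatory cytokine of activated macrophages, read 7.68, 7.74 and 7.94 at baseline and 6.43, 6.33 and 6.37 at 2 h and changed by -1.41 ± 0.10, a 2.65-fold lower intensity (adjusted p = 5.16e-10). Pdgfb, a growth factor chain, read 6.24, 6.23 and 6.20 at baseline and 5.48, 5.57 and 5.34 at 2 h, and its change of -0.76 ± 0.18 (adjusted p = 0.015) was lost without baseline replicate 1 (-0.75, adjusted p 0.0523), 2 h replicate 1 (-0.77, adjusted p 0.0511), baseline replicate 2 (-0.76, adjusted p 0.0558) or 2 h replicate 3 (-0.70, adjusted p 0.0886). Among 18 mRNA decay factors, the proteins that shorten the life of cytokine transcripts, 3 rose and 2 fell (median 0.01). Zc3h12c, a Regnase family endonuclease, read 7.08, 7.14 and 7.25 at baseline and 7.80, 8.07 and 8.14 at 2 h and rose by 0.85 ± 0.11 (adjusted p = 7.5e-06). Zfp36l1 and Zfp36l2, which bind AU-rich elements, rose by 0.80 ± 0.08 and 0.48 ± 0.05 (adjusted p = 6.76e-08 and 1.26e-06). Zc3h12d, another Regnase family member, fell by 0.49 (SE 0.07, adjusted p = 5.15e-05). Btg1, which recruits the deadenylase complex, changed by -0.21 ± 0.05 (adjusted p = 0.0192) and lost its call without 2 h replicate 1 (-0.18, adjusted p 0.132), baseline replicate 2 (-0.19, adjusted p 0.0898), 2 h replicate 2 (-0.20, adjusted p 0.0745) or baseline replicate 3 (-0.18, adjusted p 0.13).

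The lists of cytokine receptors, SOCS and STAT genes and NF-kappaB genes held 6 changed genes, all of them higher. Of all 283 changed genes 207 were higher, so nothing is read from this direction. Of 41 cytokine receptors, 3 rose and 0 fell (median -0.01). Il15ra, the chain that binds and presents interleukin 15, read 4.05, 5.04 and 4.60 at baseline and 6.84, 6.92 and 6.89 at 2 h. Its baseline arrays were spread over 0.99 log2 and its treated arrays over 0.08, all of them above baseline, and the difference was 2.32 ± 0.18 (adjusted p = 1.82e-09). Another Il15ra probe set, below background at baseline, rose by 1.12 (adjusted p = 6.2e-05). Lifr, a receptor chain for leukemia inhibitory factor, read 4.05, 4.41 and 4.18 at baseline and 6.22, 5.79 and 6.32 at 2 h and rose by 1.90 ± 0.17 (adjusted p = 1.57e-08). Tgfbr1, a TGF-beta receptor kinase, rose by 0.32 ± 0.05 (adjusted p = 0.000329). It did not pass with the probe set of largest variance (0.28, adjusted p = 0.815) or the mean of its probe sets (0.30, adjusted p = 0.221).

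Among 28 SOCS and STAT genes 1 rose. Socs2, a brake on growth hormone signalling, read 5.27, 5.61 and 4.66 at baseline and 6.18, 6.77 and 6.15 at 2 h, and its change of 1.19 ± 0.32 had the largest error of all changed genes (adjusted p = 0.0462). The call was lost without baseline replicate 1 (1.23, adjusted p 0.0897), 2 h replicate 1 (1.28, adjusted p 0.078), 2 h replicate 2 (0.99, adjusted p 0.268), baseline replicate 3 (0.93, adjusted p 0.278) or 2 h replicate 3 (1.30, adjusted p 0.0681). Of 22 NF-kappaB genes 2 rose and 0 fell (median -0.02). Nfkbia, the inhibitor that holds NF-kappaB in the cytosol, read 10.03, 10.21 and 10.07 at baseline and 10.65, 10.75 and 10.65 at 2 h and rose by 0.58 ± 0.06 (adjusted p = 5.87e-07). Birc3, a ubiquitin ligase of TNF receptor signalling, rose by 0.55 ± 0.07 (adjusted p = 2.85e-06). The subunits Rela and Rel stood at -0.10 and 0.12 (adjusted p = 0.71 and 0.885), and the feedback inhibitor Tnfaip3 at -0.01 (adjusted p = 0.994).

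In Toll-like receptor signalling, 3 of 25 genes rose and 0 fell (median 0.04). Tlr7, an endosomal sensor of single-stranded RNA, read 9.04, 9.20 and 9.11 at baseline and 9.82, 9.82 and 9.88 at 2 h and rose by 0.72 ± 0.07 (adjusted p = 3.73e-08). Tlr8, its relative, read 5.32, 5.33 and 5.20 at baseline and 6.37, 6.15 and 5.71 at 2 h and rose by 0.80 ± 0.16 (adjusted p = 0.00413), but not without 2 h replicate 1 (0.65, adjusted p 0.0553). Irf5, a transcription factor downstream of these receptors, rose by 0.36 ± 0.08 (adjusted p = 0.0147), a call lost without 2 h replicate 1 (0.35, adjusted p 0.067), baseline replicate 2 (0.32, adjusted p 0.0964), baseline replicate 3 (0.33, adjusted p 0.0816) or 2 h replicate 3 (0.35, adjusted p 0.0654).

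**Figure D3:**
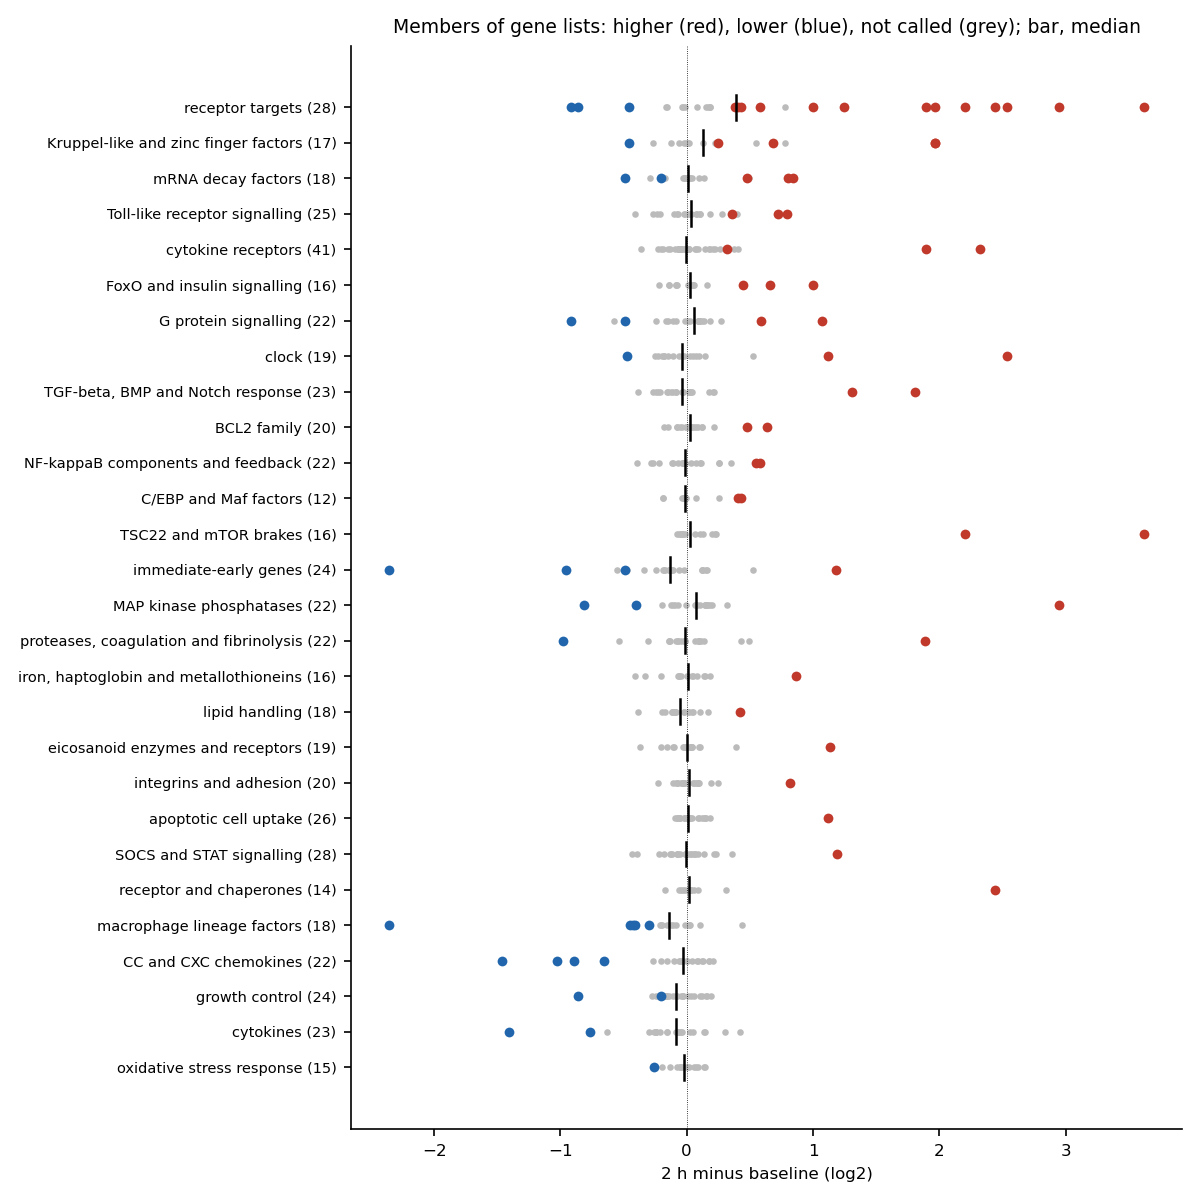
Log2 difference, 2 h minus baseline, of every tested member of the 28 gene lists with at least 1 changed gene; the number tested stands in brackets, red points rose, blue points fell, grey points did not pass the test and the black bar is the list's median. The medians lie between -0.14 (macrophage lineage factors) and 0.39 (receptor targets).

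Receptors coupled to G proteins and their regulators moved in both directions, with 2 of 22 higher and 2 lower (median 0.06). Gpr65, a proton-sensing receptor, read 7.81, 7.97 and 7.82 at baseline and 8.86, 9.08 and 8.87 at 2 h and rose by 1.07 ± 0.08 (adjusted p = 1.86e-09). Gpr183, the oxysterol receptor EBI2, rose by 0.59 ± 0.09 (adjusted p = 6.94e-05). Rgs2, which shortens signalling through Gq, was bright at baseline and read 11.26, 11.02 and 11.29 at baseline and 10.26, 10.20 and 10.35 at 2 h, a fall by 0.92 on the log2 scale (SE 0.08, adjusted p = 5.5e-09). Gpr84, a receptor for medium-chain fatty acids, changed by -0.49 ± 0.10 (adjusted p = 0.00486) and lost its call without baseline replicate 2 (-0.42, adjusted p 0.0525). Ptger2, the EP2 receptor for prostaglandin E2, was the only 1 of 19 eicosanoid genes to change; it read 7.27, 7.42 and 6.79 at baseline and 8.46, 8.31 and 8.11 at 2 h and rose by 1.13 ± 0.12 (adjusted p = 6.58e-07). Of 12 purinergic and adenosine receptors 0 passed limma's threshold and 3 had an unadjusted p under 0.05, beside 9.29% of all genes tested, with the brightest, P2ry6, at -0.09 ± 0.06.

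Mertk, a receptor kinase that recognises dying cells through Gas6 and Protein S, was the only 1 of 26 genes for apoptotic cell uptake to change at 2 h. It read 7.35, 7.76 and 7.31 at baseline and 8.71, 8.59 and 8.49 at 2 h and rose by 1.12 ± 0.09 (adjusted p = 3.35e-09), while the list's median was 0.01. In the list of 22 proteases, coagulation and fibrinolysis genes the 2 changed genes moved in opposite directions. Thbd, thrombomodulin, which turns thrombin towards activating protein C, read 6.24, 5.67 and 5.77 at baseline and 7.70, 7.72 and 7.90 at 2 h and rose by 1.88 ± 0.13 (adjusted p = 1.57e-10). Plau, the urokinase that activates plasminogen, read 9.50, 9.16 and 9.27 at baseline and 8.62, 8.13 and 8.23 at 2 h and changed by -0.98 ± 0.13 (adjusted p = 1.43e-05).

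Jag1, a Notch ligand, and Id1, an inhibitor of basic helix-loop-helix factors, were the 2 of 23 TGF-beta, BMP and Notch response genes that rose (median -0.03). Jag1 read 4.92, 5.13 and 4.50 at baseline and 6.87, 6.79 and 6.30 at 2 h (1.81 ± 0.20, adjusted p = 1.37e-06), and Id1 read 5.25, 4.94 and 4.73 at baseline and 6.38, 6.16 and 6.32 at 2 h (1.31 ± 0.16, adjusted p = 2.91e-06). Each was at 4.5 to 5.3 log2 at baseline and above 6 at 2 h. Hp, haptoglobin, which binds free haemoglobin, rose by 0.87 ± 0.19 from a level near background (adjusted p = 0.00847), but not without baseline replicate 2 (0.78, adjusted p 0.0633) or 2 h replicate 3 (0.71, adjusted p 0.0899). Fabp4, a fatty acid binding protein, rose by 0.42 ± 0.07 (adjusted p = 0.000178), alone among 18 genes of lipid handling. Its other probe sets rose by 1.50 (adjusted p = 0.00575), from a level near background, and by 0.29 (adjusted p = 0.0293). Itga5, the fibronectin receptor's alpha chain, rose by 0.82 ± 0.18 (adjusted p = 0.00906), and this call was lost without 2 h replicate 1 (0.62, adjusted p 0.114), baseline replicate 2 (0.78, adjusted p 0.0501), 2 h replicate 2 (0.77, adjusted p 0.0543) or baseline replicate 3 (0.69, adjusted p 0.0884).

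Survival and growth genes included members that rose and members that fell. Of 20 BCL2 family genes 2 rose (median 0.02): Bcl2l1, the survival protein BCL-XL, by 0.48 ± 0.07 (adjusted p = 0.000143), and Bmf, which promotes cell death, by 0.63 ± 0.15 (adjusted p = 0.0147). The Bcl2l1 call was lost with the probe set of largest variance (0.62, adjusted p = 0.139), and that of Bmf without baseline replicate 2 (0.57, adjusted p 0.097) or 2 h replicate 3 (0.50, adjusted p 0.15). Of 24 growth control genes 0 rose and 2 fell (median -0.08), Btg1 and Gadd45a. Gadd45a, a stress-induced regulator of the cell cycle, read 8.19, 8.17 and 8.13 at baseline and 7.10, 7.50 and 7.30 at 2 h and changed by -0.86 ± 0.11 (adjusted p = 1.18e-05). Myc stood at -0.24 (adjusted p = 0.434) and Cdkn1a at -0.16 (adjusted p = 0.538). Nfe2l2, the oxidative stress factor NRF2, changed by -0.26 ± 0.05 (adjusted p = 0.00414), alone among 15 genes of its response. It did not pass with the probe set of largest variance (-0.19, adjusted p = 0.754), with the mean of its probe sets (-0.23, adjusted p = 0.139) or without the intensity trend (adjusted p = 0.058).

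Several functions of macrophages had no gene past limma's threshold at 2 h. Over all genes tested, 9.29% had an unadjusted p under 0.05, which is the background for the counts that follow. Among 34 interferon-stimulated genes, 3 had such a p and the median was 0.14, with the brightest, Ifitm3, at 0.06 ± 0.07. Of 31 genes for DNA replication and mitosis 2 had an unadjusted p under 0.05 and Pcna stood at -0.04 ± 0.04. For 16 MHC class II and costimulation genes, with Ctss at 0.02 ± 0.03, that number was 3, and for 18 polarization enzymes and markers, with Mrc1 at 0.14 ± 0.08, it was 3. It was 3 of 23 for glycolysis and hypoxia, with Gapdh at -0.04 ± 0.04, and 2 of 23 for ER stress and the amino acid response, with Hspa5 at 0.00 ± 0.05. For 12 complement genes (C1qb -0.01 ± 0.05), 21 of sterol and fatty acid synthesis (Msmo1 -0.05 ± 0.11) and 21 of the lysosome (Ctsb 0.01 ± 0.04) it was 0, and for 24 of the respiratory chain (Cox5a 0.03 ± 0.04) it was 1. All of these bright genes averaged 11 log2 or more over the 6 arrays and had errors of at most 0.11. Other members could differ more than the brightest. Changes spanned -0.46 to 0.58 for MHC class II and costimulation and -0.41 to 0.54 for polarization, but -0.10 to 0.07 for the respiratory chain. The lowest in the polarization list was Acod1, just outside the threshold (limma's adjusted p = 0.051).

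Of the 283 genes, 67 were in at least 1 of the 41 lists and 216 in none. The lists held 780 of the genes tested (5.91%), of which 67 are 8.59%, beside 2.15% called among all genes; the lists were chosen with earlier results of these data known, so nothing is read from that difference. Genes in no list included some of the largest rises. Abhd15, a hydrolase-fold protein studied in fat cells, read 4.74, 4.94 and 4.72 at baseline and 7.52, 7.43 and 7.61 at 2 h and rose by 2.72 ± 0.15 (adjusted p = 1.34e-12), the third largest rise. Sla, an adaptor that lowers antigen receptor signalling, read 8.53, 8.61 and 8.68 at baseline and 10.56, 10.46 and 10.61 at 2 h (1.94 ± 0.06, adjusted p = 4.57e-17). Rnf169, a ubiquitin ligase of the DNA damage response, read 6.83, 6.77 and 6.76 at baseline and 8.57, 8.67 and 8.61 at 2 h (1.83 ± 0.07, adjusted p = 1.41e-15). B3gnt5, an enzyme of glycolipid synthesis, read 4.64, 4.12 and 4.56 at baseline and 6.37, 5.94 and 6.45 at 2 h (1.81 ± 0.22, adjusted p = 4.26e-06). The treated arrays of all 4 genes stood more than 1.2 units above their highest baseline array.

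Further rises of at least 1 log2 unit, named after their values were seen, fell on signalling enzymes and adaptors. Sik1, a salt-inducible kinase, rose by 1.50 ± 0.14, Ssh2, a phosphatase that activates the actin-severing protein cofilin, by 1.36 ± 0.09, and Stk17b, a relative of the death-associated protein kinases, by 1.10 ± 0.06. Wee1, the kinase that holds back entry into mitosis, rose by 1.14 ± 0.09, and Trp53inp1, a p53-induced nuclear protein, by 1.13 ± 0.07. Gab3, an adaptor of the CSF1 receptor, read 7.57, 7.43 and 7.52 at baseline and 8.67, 8.64 and 8.57 at 2 h and rose by 1.12 ± 0.09 (adjusted p = 6.36e-09). Cytip, which lowers leukocyte adhesion, rose by 1.62 ± 0.09, and Jdp2, a repressor that dimerises with Jun, by 1.55 ± 0.07. Enzymes in the same range were Sgms1, a sphingomyelin synthase (1.05 ± 0.08), Napepld, which makes N-acylethanolamine lipids (1.10 ± 0.13), and Sult1a1, a sulfotransferase (1.05 ± 0.15). Pex13, part of the peroxisomal import machinery, was named by the rule and rose by 1.52 ± 0.06 (adjusted p = 1.13e-15).

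Genes outside the lists that fell were led by Enc1, an actin-binding Kelch protein, which read 8.59, 8.35 and 8.41 at baseline and 7.34, 7.02 and 7.17 at 2 h and changed by -1.27 ± 0.12 (adjusted p = 2.92e-08). Rasgef1b, a Ras family exchange factor induced by Toll-like receptors, read 8.86, 9.15 and 8.93 at baseline and 8.03, 7.93 and 7.91 at 2 h and changed by -1.02 ± 0.10 (adjusted p = 2.47e-07). Both genes' treated arrays lay at least 0.8 units under their lowest baseline array. Ptpre, a receptor type tyrosine phosphatase, fell by 0.82 (SE 0.07, adjusted p = 6.36e-09), Zfp503, a zinc finger repressor, by 0.83 (SE 0.09, adjusted p = 1.2e-06), and Clec2i, a lectin-like ligand of NK receptors, by 0.83 (SE 0.13, adjusted p = 0.00021). Sox7, a factor of endothelial and blood progenitors, read 4.92, 4.73 and 4.25 at baseline and 3.74, 3.64 and 3.67 at 2 h (-0.95 ± 0.17, adjusted p = 0.000882), and its treated arrays were all below background. Named after their values were seen, Rapgef3, the cyclic AMP sensor EPAC1, changed by -0.80 ± 0.16, Prdm1, the repressor Blimp-1, by -0.78 ± 0.15 to a level below background on 2 of 3 arrays, and Mylip, the ligase that degrades the LDL receptor, by -0.64 ± 0.09.

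Other probe sets of the same genes give a further reading on the same arrays, so they share the RNA and are not independent. Of the 283 genes, 149 had 247 other probe sets. Of these, 212 (85.8%) differed in the same direction as the probe set that stands for the gene, 73 passed limma's threshold in the same direction, and 0 passed in the opposite one, beside 1.33% of all 28724 probe sets with 1 gene symbol that passed. Where the other probe set was above background, 170 of 177 (96.0%) had the same direction. Of these 177, 118 differed by a log2 change within 1.5 times that of the gene's own probe set, 49 by a smaller or opposite one and 10 by a larger one. Fkbp5 had another above background at 2.33 log2, Klf4 1 at 1.81 and Egr2 1 at -2.00. Klf9 had others above background at 2.03, 1.92 and 0.75, all of which passed, and 1 below background at 0.19. Tsc22d3 had 1 at 2.43 and 1, near background at baseline, at 0.47 that did not pass (adjusted p = 0.083). Jag1 had another at 0.63 (adjusted p = 0.13) and Klf13 1 at -0.22 (adjusted p = 0.872), both near background at baseline. Smaller rises than on the gene's own set also stood on other sets of Cytip (0.94, adjusted p = 0.00545), Trp53inp1 (0.63, adjusted p = 0.248) and Birc3 (0.22, adjusted p = 0.821). Pik3r1 had a larger one, at 1.00 (adjusted p = 3.74e-05). Lifr stood out, with its 2 other sets at -0.15 and 0.09 and levels within 0.20 of the background, and the other set of Abhd15, at 0.05, was below background. Zfp318, a zinc finger protein, rose by 0.50 ± 0.11 (adjusted p = 0.00535) on its brightest set and stood at -0.27 (adjusted p = 0.783) on another above background, and its call was lost without baseline replicate 2 (0.39, adjusted p 0.0651) or 2 h replicate 3 (0.45, adjusted p 0.0511). Skp2, a ubiquitin ligase subunit of the cell cycle, rose by 0.48 ± 0.08 (adjusted p = 0.000477) with another set at -0.01, and Tbc1d14, a regulator of autophagy, by 0.40 ± 0.05 (adjusted p = 6.75e-06) with another set at -0.03. Neither passed as the mean of its probe sets (Skp2 0.24, adjusted p = 0.215; Tbc1d14 0.10, adjusted p = 0.78).

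**Figure D4:**
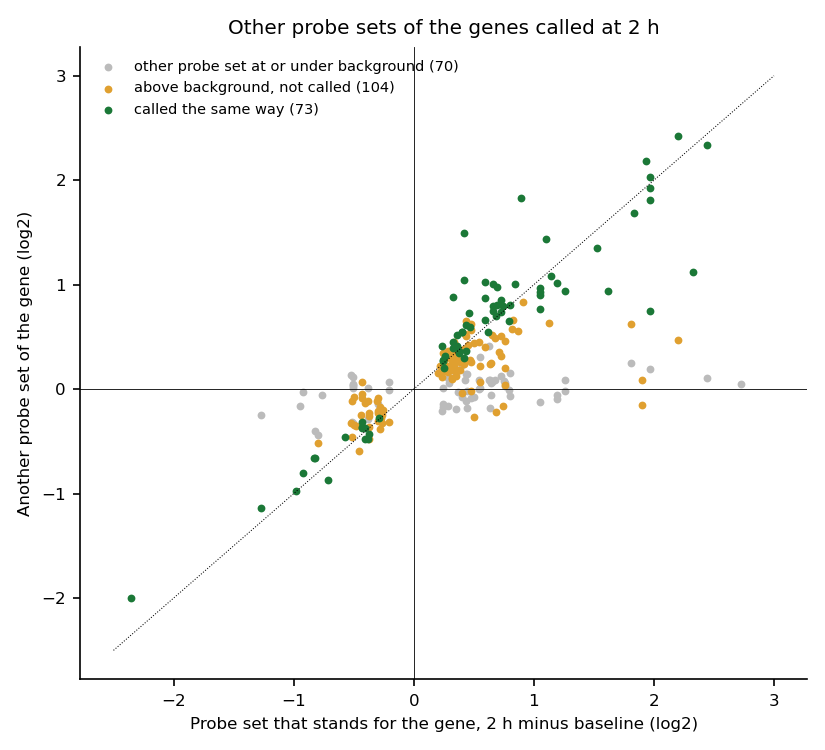
Log2 difference, 2 h minus baseline, of the probe set that stands for a gene (horizontal) and of each of its other probe sets (vertical), for 247 probe sets of 149 genes that changed; the dotted line marks equal differences. The 73 green points passed the test in the same direction, and the 70 grey points were at or under background.

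The arrays at 1 h and 4 h place the 2 h differences in time. These comparisons share the 2 h arrays with the one above, so each is given by its own values. Between 1 h and 2 h, 148 genes differed (1.12% of those tested; 0.879% higher and 0.243% lower at 2 h), and between 2 h and 4 h 251 did (1.9%; 1.16% higher and 0.743% lower at 4 h). Of the 207 genes that had risen at 2 h, 105 had also risen between 1 h and 2 h. The same held in the other direction for 28 of the 76 that had fallen. Fkbp5 stood at 0.14 log2 over baseline at 1 h (adjusted p = 0.999), 2.44 at 2 h and 3.67 at 4 h, with 2.30 between 1 h and 2 h (adjusted p = 4.15e-17). Lifr stood at -0.23, 1.90 and 3.31, and Mertk at 0.02, 1.12 and 1.88. None of the 3 passed at 1 h (adjusted p = 0.999 for Lifr and 0.999 for Mertk), and all were higher at 4 h than at 2 h, by 1.23, 1.41 and 0.76 (adjusted p = 6.46e-11, 1.39e-05 and 1.39e-05).

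Other genes had most of their 2 h difference at 1 h. Tsc22d3 stood at 1.80 at 1 h and 2.20 at 2 h, Per1 at 2.10 and 2.54, Sgk1 at 0.88 and 1.00, and Ier3 at -0.95 and -0.95. By the test of that step, Dusp1 was the only gene among the 283 that moved back between 1 h and 2 h, from 3.36 to 2.95 over baseline, a step of -0.42 (adjusted p = 0.0181). That step missed the threshold without 2 h replicate 2 (-0.38, adjusted p 0.115), without 2 h replicate 3 (-0.42, adjusted p 0.0624), without the intensity trend (0.168), with a robust prior (0.189) and with the mean of all probe sets (0.0645). Of the chemokines, Ccl2 stood at -0.06 at 1 h and -1.02 at 2 h, and Ccl7 at -0.23 and -1.46. Their steps between 1 h and 2 h were -0.96 and -1.24 (adjusted p = 6.21e-07 and 0.000257). Tnf already stood at -1.10 at 1 h, with a step of -0.31 to 2 h that did not pass (adjusted p = 0.269).

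By 4 h, 65 of the 207 genes that had risen at 2 h had risen further and 0 had moved back. Of the 76 that had fallen, 5 had fallen further and 5 had moved back towards baseline. The mean at 2 h lay beyond both the 1 h and the 4 h mean for 51 of the 207 genes that rose (24.6%) and 38 of the 76 that fell. Over all genes tested that was so for 44.3% of those higher at 2 h and 39.3% of those lower; the genes were chosen on the same 2 h arrays, and nothing is read from these shares. Those farthest beyond were Tubgcp4, a microtubule nucleation protein, which stood at 0.13, 0.80 and 0.17 at 1, 2 and 4 h, and Ccl7, which stood at -0.23, -1.46 and -0.92. The 4 h minus 2 h difference passed for neither (Tubgcp4 -0.63, adjusted p = 0.0534; Ccl7 0.54, adjusted p = 0.19). Also in this group were Zfc3h1, an RNA exosome cofactor (0.29, 0.82 and 0.45), Tbc1d10a, a GTPase-activating protein for Rab proteins (0.38, 0.73 and 0.39), and, among those that fell, Zfp503 (-0.51, -0.83 and -0.52).

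**Figure D5:**
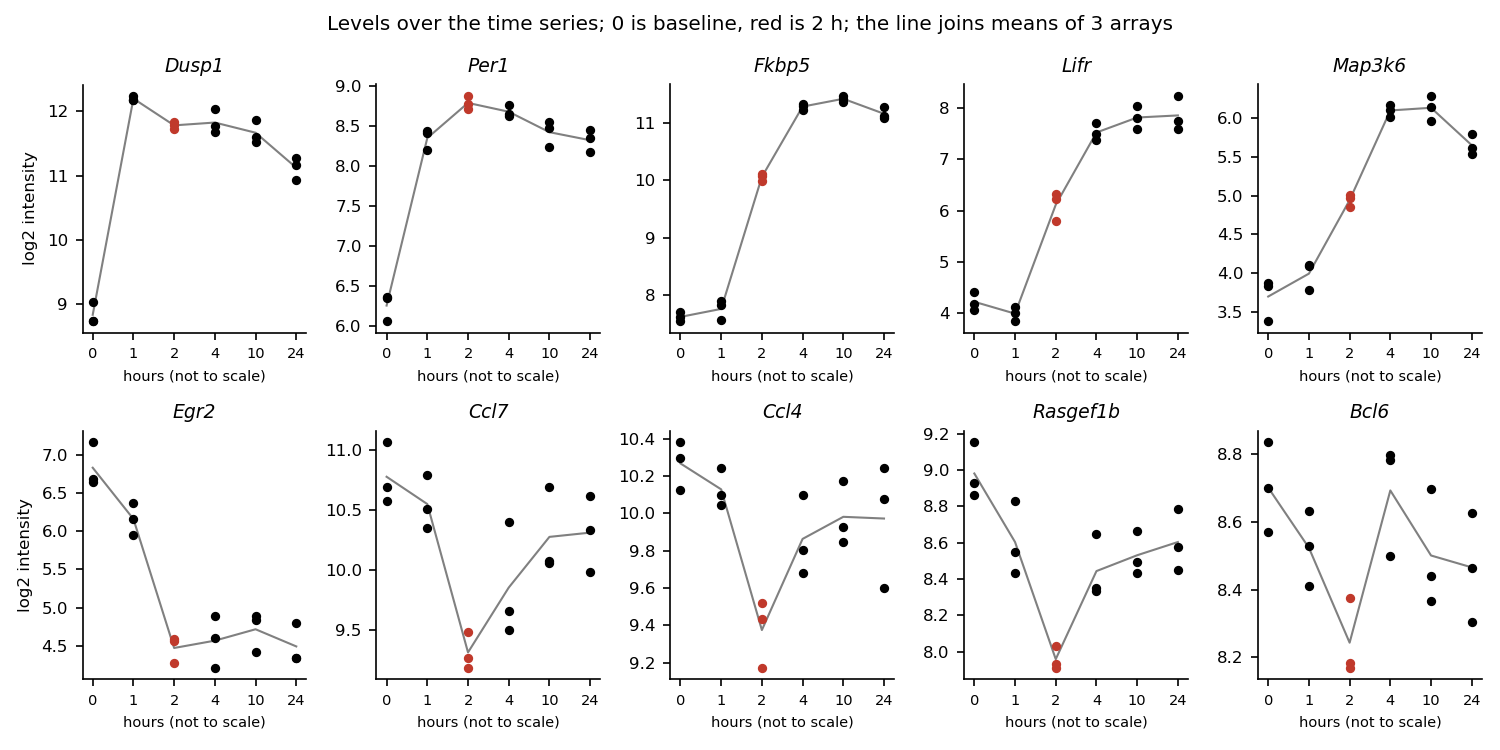
Log2 intensity of 10 genes on all 3 arrays at each time, with hours on the horizontal axis (0 is baseline, spacing not to scale), the 2 h arrays in red and a line through the means; each panel has its own vertical range. Fkbp5, Lifr and Map3k6 are higher at 4 h than at 2 h, while Ccl4, Rasgef1b and Bcl6 have their lowest mean at 2 h.

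Neighbouring genes on a chromosome were looked up in the RefSeq gene table. Of 8391 pairs of adjacent protein-coding genes with both tested, 25 (0.298%) had both genes changed, and 359 had at least 1. The 25 pairs held 48 genes and 22 pairs moved in the same direction. Over all genes tested 2.15% changed, and 207 of the 283 changed genes were higher. The shares that unrelated genes would give were not worked out, so nothing is read from these counts. The chemokine genes made up 2 of the pairs on chromosome 11, Ccl2 with Ccl7 and Ccl3 with Ccl4. Abhd15 lay next to Trp53i13, a p53-induced gene that rose by 0.65 ± 0.15 (adjusted p = 0.0172) but not without baseline replicate 1 (0.60, adjusted p 0.0829), 2 h replicate 1 (0.56, adjusted p 0.13), baseline replicate 3 (0.57, adjusted p 0.111) or 2 h replicate 3 (0.59, adjusted p 0.106). Egr2 lay next to Ado, a thiol dioxygenase that changed by -0.38 ± 0.08 (adjusted p = 0.00758), a call lost without baseline replicate 1 (-0.32, adjusted p 0.0719). Pex13 rose beside 0610010F05Rik (0.36 ± 0.06, adjusted p = 0.000799). Cd300lf, an inhibitory receptor for lipids on myeloid cells, rose by 0.56 ± 0.07 (adjusted p = 1.17e-05) beside Slc9a3r1 (0.24 log2), whose call was lost without baseline replicate 1 (0.19, adjusted p 0.0883), 2 h replicate 1 (0.21, adjusted p 0.0654) or 2 h replicate 3 (0.22, adjusted p 0.0597). The neighbours Hivep2, a zinc finger factor, and Adgrg6, an adhesion receptor, rose by 0.82 ± 0.14 and 0.67 ± 0.13 (adjusted p = 0.000343 and 0.00295), though Adgrg6 did not pass with only the 6 arrays compared (0.0916). Named after their values were seen, Fos lay beside Jdp2 on chromosome 12, Mertk beside Tmem87b (0.77 ± 0.10) on chromosome 2, and Tlr7 beside Tlr8 on chromosome X. The 3 pairs with opposite directions were Zeb2 with Acvr2a, an activin receptor that rose by 0.94 ± 0.15, Dusp4 with Tnks, a tankyrase that rose by 0.54 ± 0.08, and Irf2bpl (-0.37 ± 0.05) with Cipc (0.34 ± 0.05).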

How the data were processed

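RNA from each culture was hybridised to 1 Affymetrix array per sample. The deposited values are linear intensity summaries of probe sets that the authors made with RMA (affy), per the submitters' processing notes. RMA equalises the distributions of the arrays and would hide a shift common to most genes. The number of arrays limits the precision.

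Intensities of 45141 probe sets were converted to log2. In baseline replicate 1, 211 consecutive probe sets fell in an even series without scatter, and these were left out on all arrays. Of 28898 probe sets with 1 gene symbol, the brightest over the 18 arrays stood for its gene (17097 genes). A gene was tested if it was at or above the 40th percentile of the array on 3 or more arrays (13190 genes). Limma 3.58.1 in R 4.3.3 (lmFit, eBayes with an intensity trend) was fitted to all 18 arrays, 1 mean per group, with two-sided Benjamini-Hochberg adjustment over all genes tested and a threshold of 0.05. Genes below background have only an upper bound for their level.

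Named genes were the 15 largest rises and falls whose groups did not overlap, up to 8 changed members of each of 41 lists or the brightest where none changed, the check genes Dusp1, Fkbp5, Nr3c1, Per1 and Tsc22d3, genes with the receptor motif, the 6 in each direction farthest beyond 1 h and 4 h, up to 5 with an opposing probe set, and up to 10 adjacent pairs; others are said to be so. The lists held 922 genes, of which the array names 819 and 780 were tested. The gene lists and comparisons were chosen with earlier results of these data known. Promoters and gene order came from RefSeq on GRCm38.p6. On simulated data of 13190 genes the 2 h comparison recovered 16%, 66%, 98% and 100% of genes changed by 0.25, 0.5, 1 and 2 log2 units, with 8 false calls. Each size was given to 50 genes. The simulated noise was normal and independent between genes and arrays, without a replicate effect, so these rates need not hold for the real arrays. Alternatives covered the replicate block, arrays fitted, variance prior, probe set choice, dim gene filter, scaling, stepped values, adjustment, effect size and each array left out.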

Additional observations from a re-analysis of the deposited data

Results flagged for a closer look

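Among the genes that had fallen at 2 h, 5 moved back towards baseline between 2 h and 4 h by the test of that step itself, which shares the 2 h arrays with the comparison. Ccl4, the chemokine, was at -0.89 log2 relative to baseline at 2 h and rose by 0.49 to 4 h (adjusted p = 0.0399). Rasgef1b, the Ras exchange factor, was at -1.02 and rose by 0.49 (adjusted p = 0.0117), and Bcl6, the repressor, was at -0.46 and rose by 0.45 (adjusted p = 0.016). Hhex, a homeobox factor of blood and liver development, read 9.28, 9.26 and 9.44 at baseline and 8.95, 8.60 and 8.87 at 2 h, was at -0.52 ± 0.09 and rose by 0.35 (adjusted p = 0.0345). Pnrc1, a nuclear receptor coactivator, read 9.90, 9.95 and 9.99 at baseline and 9.68, 9.72 and 9.83 at 2 h, was at -0.20 ± 0.05 and rose by 0.24 (adjusted p = 0.00679). At 4 h the distances from baseline were -0.41 for Ccl4, -0.54 for Rasgef1b, -0.01 for Bcl6, -0.16 for Hhex and 0.03 for Pnrc1.

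The return of all 5 genes was lost without single arrays at 2 h: Ccl4 without 2 h replicate 2 (0.39, adjusted p 0.239) or 2 h replicate 3 (0.52, adjusted p 0.0771), Rasgef1b without 2 h replicate 2 (0.47, adjusted p 0.0534) or 2 h replicate 3 (0.46, adjusted p 0.057), and Bcl6 without 2 h replicate 2 (0.42, adjusted p 0.0823) or 2 h replicate 3 (0.41, adjusted p 0.0771). Likewise it was lost for Hhex without 2 h replicate 2 (0.25, adjusted p 0.253) or 2 h replicate 3 (0.38, adjusted p 0.0574), and for Pnrc1 without 2 h replicate 1 (0.21, adjusted p 0.0506). The 2 h difference of Pnrc1 from baseline was itself lost without 2 h replicate 1 (adjusted p 0.126), 2 h replicate 2 (0.0918), baseline replicate 2 (0.0549) or baseline replicate 3 (0.109).

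Probe sets with no gene symbol or with several were outside the comparison of named genes. Of 16102 such probe sets, 172 passed limma's threshold at 2 h (1.07%), 149 higher and 23 lower, with a largest rise of 3.49 and a largest fall of -0.85 log2. The annotation used here gives them no single gene.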

How the results depend on the processing

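The 283 changed genes became between 232 and 387 under the other fits, filters, scalings and adjustments, outside the settings named next, and 249 to 285 when 1 array was left out (177 to 217 higher and 61 to 76 lower; list members 57 to 65, other probe sets 61 to 73). With the replicate number as a block, 432 genes changed (304 higher, 128 lower), 282 of them shared with the fit without it. Same-numbered arrays correlated in their deviations at 0.123, 0.0977 and 0.212, each the best match of its array, a hint from the data and not from the design, so the numbers were not taken as pairs. Tested against a fold of 1.2, 107 genes passed (87 higher, 20 lower), with 37 list members and 37 other probe sets; with a log2 change of at least 1, 48 passed (42 higher, 6 lower), with 23 list members. The full palindrome in place of the short motif was in 1 promoter of a gene that rose. Scaling moved the median of all genes by at most 0.03 and left between 67.5% and 69.7% of the changed genes higher.

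Besides the losses given with the genes, of the 96 named genes that changed at 2 h, these missed the threshold: with the probe set of largest variance, 17 did (0610010F05Rik, Ado, Bcl2l1, Bcl6, Btg1, Dusp7, Klf6, Nfe2l2, Runx1, Skp2, Slc9a3r1, Socs2, Tbk1, Tgfbr1, Xpot, Zeb2 and Zfp318). With the mean of all probe sets, 16 did (Ado, Bmf, Btg1, Insr, Nfe2l2, Pdgfb, Prag1, Runx1, Skp2, Socs2, Tbc1d14, Tbk1, Tgfbr1, Xpot, Zeb2 and Zfp318). Without the intensity trend, 11 did (Atf3, Bcl6, Bhlhe40, Btg1, Insr, Klf6, Nfe2l2, Runx1, Slc9a3r1, Socs2 and Xpot). With only the 6 arrays compared, 10 did (Adgrg6, Bmf, Btg1, Insr, Itga5, Mex3b, Slc9a3r1, Trp53i13, Xpot and Zfp318). With a robust prior, 3 did (Atf3, Ccl3 and Socs2). With a further quantile normalization, 4 did (Bmf, Mex3b, Socs2 and Trp53i13). Socs2 also missed it with a 60th percentile filter, and 2 genes with the stepped values kept (Runx1 and Socs2). The largest loss was in the test against a fold of 1.2, where 44 of the 96 missed the threshold. Among these 44 were Cebpb, Maf, Ets2, Gpr183, Fabp4, Zc3h12d, Tubgcp4, Bbs12, Thap2 and Tmem19.

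Signs turned for genes that had not passed or through another probe set; the cause was not tested. With the probe set of largest variance, log2 changes were -0.067 for Trim28, 0.094 for Zeb2 between 1 h and 2 h, -0.66 for Fabp4 between 2 h and 4 h, -0.024 for Hspa5, -0.027 for Ctsb, -0.011 for Cox5a, -0.27 for Zfp318, -0.013 for Skp2, -0.54 for Tmem19 between 2 h and 4 h and -0.21 for Xpot. With the mean of all probe sets they were -0.022 for Trim28, -0.0097 for Hspa5, -0.025 for Ctsb and -0.0061 for Cox5a, and with median centring -0.0062 for Hspa5 and -0.0043 for Ctsb. With 1 array left out they spanned -0.064 to 0.097 for Trim28, -0.063 to 0.074 for C1qb, -0.0080 to 0.13 for Ifitm3, -0.14 to 0.056 for Msmo1, -0.039 to 0.059 for Hspa5 and -0.024 to 0.030 for Ctsb.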
